A study of Mus musculus with 18 samples.

Results

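The comparison described here asked whether a mutant histone H3 with lysine 36 replaced by methionine (K36M) altered the same transcripts in intestine and in testes of the same mice. For each gene, the log2 change of K36M over wild type (WT) in testes was subtracted from the log2 change in intestine. The result is called the effect difference, and a positive value means that the K36M level lay further up, or less far down, in intestine. All gene IDs that passed a filter on low counts in both tissues were included, which gave 13100 of the 37620 IDs in the deposited tables. The contrast rested on 8 of the 18 libraries of the series, in 4 groups of 2. K36M intestine and K36M testes came from mice 1485 and 1553, and WT intestine and WT testes came from mice WT.1476 and WT.1477. The series also holds K9M mutants and bone marrow progenitors. The 4 K9M libraries of these tissues entered the count filter, the scaling of the libraries and the estimate of spread, but not the contrast itself. Every mouse was a C57B6/129 hybrid, and the protocol given for all libraries, WT included, was doxycycline at 2 mg/ml in the drinking water of animals aged 6 to 8 weeks. Libraries were made from poly(A) RNA of dissociated cells of each tissue. The labels do not give the promoter that drives the mutant histone, the length of induction or the transgenes carried by WT mice. The counts per gene do not separate mutant from normal H3 transcripts, so the mutation itself could not be read from these tables.

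Methylation of H3 lysine 36 is written by SETD2, ASH1L and the NSD enzymes, marks the bodies of transcribed genes and is bound by reader proteins such as DNMT3A and MORF4L1. A methionine at this position traps these enzymes, so that the mutant lowers the mark on the normal histones beside it. The intestinal epithelium is renewed from crypt stem cells into absorptive enterocytes and secretory goblet, Paneth, enteroendocrine and tuft cells. Testes hold spermatogonia, meiotic spermatocytes and haploid spermatids, with Sertoli and Leydig cells around them, and the X chromosome is silenced in spermatocytes during meiosis.

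Counts assigned to genes lay between 13396303 and 19398221 in intestine and between 16122101 and 20577418 in testes. Levels below are CPM, counts scaled for library size by TMM, and pairs of values run from mouse 1485 to mouse 1553 in K36M and from mouse WT.1476 to mouse WT.1477 in WT. The tissue labels matched their markers: the brush border gene Vil1 had 2316 to 3794 CPM in intestine and 1.06 to 1.15 CPM in testes, and the protamine gene Prm1 had 2383 to 8159 CPM in testes. The WT intestine library of mouse WT.1476 stood apart, since 8 spermatid genes summed there to 1.41% of their mean level in testes, against 0.0492% to 0.187% in the other 3 intestine libraries of the contrast. In K36M testes, mouse 1553 lay farther from WT than mouse 1485 in 6146 of the 6873 genes called there (89.4%), and in K36M intestine it did so in 1223 of 2975 (41.1%). Leaving out one testes WT library lowered the number of called differences to 2906 (mouse WT.1476) or 2922 (mouse WT.1477), and leaving out the testes K36M library of mouse 1553 lowered it to 3592.

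The effect difference passed an adjusted p of 0.05 for 4771 of 13100 genes (36.4%), of which 2184 were positive (16.7%) and 2587 negative (19.7%), by the quasi-likelihood test of edgeR, adjusted after Benjamini and Hochberg over all genes tested. Scaled by library size alone, 4464 were called, of which 56.2% were positive, against 45.8% with TMM, and the median of all genes moved to 0.15, against -0.05. Of the called differences, 3852 were also at least 2-fold. The same fit called 30 differences (0.229%) for the K9M mutant, 16 positive (0.122%) and 14 negative (0.107%), which was compared with the same WT libraries. Among the 13100 genes, K36M over WT was called for 2975 in intestine (22.7%), with 1478 higher (11.3%) and 1497 lower (11.4%), and for 6873 in testes (52.5%), with 3773 higher (28.8%) and 3100 lower (23.7%). The median SE of a log2 change was 0.272 in intestine and 0.182 in testes, so a smaller change could pass in testes. Spread between the 2 mice of a group, as chi-square per degree of freedom against counting noise, was unequal in testes. It was 53.4 in K36M, 2.4 in WT and 5.39 in K9M, and in intestine 60.5, 36 and 41.4. Each fit pooled these groups into 1 estimate of spread per gene, so the testes SE is partly that of the closer WT and K9M pairs. The counts per tissue leaned on the WT libraries: of all genes tested in that tissue, 3323 (23.3%, 11.7% in each direction) were called in intestine, and 953 and 788 without mouse WT.1476 and mouse WT.1477, and 9476 (49.5%, 25.7% higher and 23.8% lower) were called in testes, and 2029 and 2317 without these mice. Across genes, the log2 changes of the 2 tissues had a Pearson correlation of 0.0807 and a Spearman correlation of 0.0709, given as a description since genes are not independent replicates. The plot of the change in each tissue shows arms along both axes and no band along the diagonal. Both K36M mice lay beyond both WT mice, in their own intestine minus testes log2 level, for 4745 of the 4771 called genes (99.5%, against 67.4% of all genes tested), which the test had selected for that direction.

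**Figure D1:**
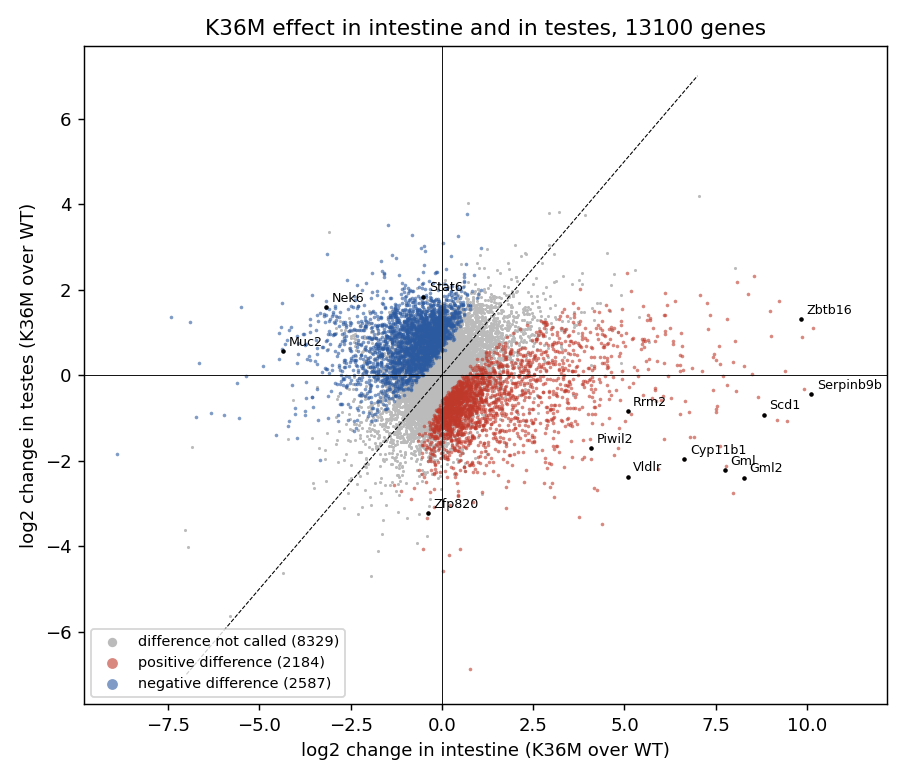
Each point is 1 of 13100 genes, with the log2 change of K36M over WT in intestine on the horizontal axis and in testes on the vertical axis (2 libraries a group). Red marks the 2184 called positive effect differences and blue the 2587 called negative ones, grey genes did not pass, and equal changes would lie on the dashed diagonal. Serpinb9b sits far right near 0 in testes, and Zfp820 sits far down near 0 in intestine.

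The called differences fell into patterns by what each tissue did on its own. The most frequent was a rise in testes alone, with 1364 negative differences, followed by a fall in testes alone, with 996 positive ones. Intestine alone rose for 512 genes and fell for 504. The tissues moved in opposite directions for 626 genes: 243 rose in intestine and fell in testes, and 383 fell in intestine and rose in testes. A further 260 moved the same way in both but by unequal amounts (178 positive and 82 negative), and for 503 neither tissue passed by itself. Of the 1624 genes called in both tissues, 998 changed in the same direction. A tissue that did not pass the test is not shown to be unaffected, and the difference itself is what was tested.

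Among genes that rose in intestine and fell in testes, Gml2 had the largest positive difference of those eligible to be named. It encodes a GPI-anchored protein of the LY6 family. It had 40.8 and 46.5 CPM in K36M intestine, against 0.111 and 0.159 CPM in WT intestine. In testes it had 7.18 and 3.57 CPM in K36M, against 28.5 and 27.8 CPM in WT. The groups did not overlap in either tissue, and K36M lay above WT in intestine and below it in testes. Genes named by size or p of the difference had to have both K36M mice beyond both WT mice in intestine minus testes level. That separation was met by 67.4% of all genes tested. Lack of overlap within a tissue was thus favoured by the choice, and its share over all genes was not counted. It is given here and below as a description. The effect difference of Gml2 was 10.68 ± 0.56 (log2 ± SE, adjusted p = 2.43e-05, edgeR's quasi-likelihood test). WT intestine held 4 counts of Gml2 in all, and the K36M over WT ratio there was 342, with an exact 95% interval of 133 to 1260 that covers counting error only.

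Gml2 lies in a run of 8 neighbouring tested genes on chromosome 15 that all had called positive differences; the run was chosen after its values were seen. In chromosome order these were Jrk, Psca, Them6, Lynx1, Gml, Gml2, Cyp11b1 and Cyp11b2, with effect differences of 2.48, 8.35, 5.52, 3.55, 9.97, 10.68, 8.65 and 8.37. Psca, a prostate stem cell antigen of the LY6 family, had 171 and 59.0 CPM in K36M intestine, against 0.555 and 1.43 CPM in WT intestine. Them6, a thioesterase superfamily member, had 28.2 and 17.1 CPM in K36M intestine, against 2.94 and 2.63 CPM in WT intestine. In testes Them6 had 12.8 and 2.56 CPM in K36M, against 43.9 in both WT libraries. Intestine rose for 7 of the 8 genes, with Jrk as the exception (log2 change 0.31, adjusted p = 0.562). Testes fell for 7 of the 8, with Lynx1 as the exception (log2 change -0.74, adjusted p = 0.165). The tested genes on either side, Mroh4 and 2010109I03Rik, had differences of 0.63 and 1.81 that did not pass (adjusted p = 0.677 and 0.0719, edgeR). Gml with Gml2, and Cyp11b1 with Cyp11b2, are pairs of related genes whose sequences were not compared here. Reads may have been divided within a pair or dropped, so the values of these 4 are uncertain. Cyp11b2 had no count in WT intestine and 24 counts in K36M intestine, which puts the lower end of the exact 95% interval of their ratio at 7.3, for counting error only.

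**Figure D2:**
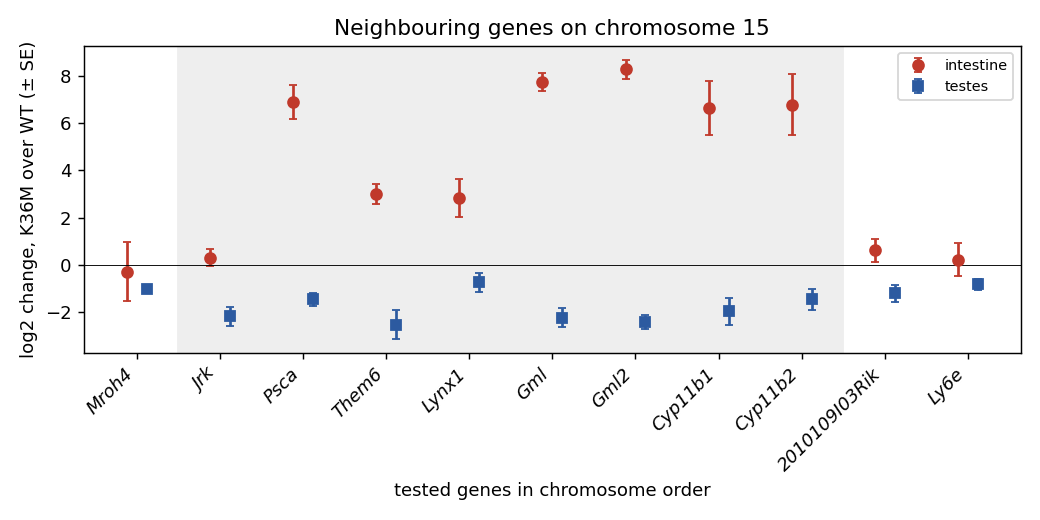
Log2 change of K36M over WT with its SE (vertical axis; intestine as red circles, testes as blue squares, 2 libraries a group) for consecutive tested genes on chromosome 15 in annotation order. In the shaded run of 8 genes the intestine value lies above 0 and the testes value below 0, and the intestine change reaches 8.28 for Gml2, beside -2.40 in testes.

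Lipid and DNA synthesis genes were among the other opposite movers. Vldlr, a lipoprotein receptor, had 127 and 72.1 CPM in K36M intestine, against 1.83 and 4.14 CPM in WT intestine. In testes Vldlr had 0.687 and 1.08 CPM in K36M, against 4.38 and 4.62 CPM in WT, and the difference was 7.45 ± 0.58 (adjusted p = 0.000103). Its K36M libraries lay above both WT libraries in intestine and below both in testes. Scd1, the stearoyl-CoA desaturase that makes monounsaturated fatty acids, had 1480 and 807 CPM in K36M intestine, against 3.28 and 1.59 CPM in WT intestine. Its fall in testes was small beside that, to 7.43 and 11.2 CPM in K36M, against 19.2 and 15.5 CPM in WT (log2 change -0.93 ± 0.30, adjusted p = 0.0406). Rrm2, a subunit of ribonucleotide reductase, had 398 and 221 CPM in K36M intestine, against 12.5 and 5.26 CPM in WT intestine, and 11.2 and 8.49 CPM in K36M testes, against 17.6 and 17.1 CPM in WT testes. The Rrm2 difference was 5.92 ± 0.60 (adjusted p = 0.000299, edgeR).

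Piwil2, a PIWI protein that acts with small RNAs against transposons in germ cells, was added after its values were seen. It had 23.1 and 18.3 CPM in K36M intestine, against 1.28 and 1.11 CPM in WT intestine, and 107 and 48.4 CPM in K36M testes, against 249 and 252 CPM in WT testes. The 2 groups were apart in both tissues, and the difference was 5.78 ± 0.49 (adjusted p = 0.000121). Zbtb16, a transcription factor of undifferentiated spermatogonia, rose in both tissues instead. It had 86.1 and 51.6 CPM in K36M intestine, against 0 and 0.159 CPM in WT intestine, and 13.6 and 13.9 CPM in K36M testes, against 4.63 and 6.20 CPM in WT testes. Only 2 counts of Zbtb16 were seen in WT intestine, which gives a ratio of 1040 with a counting interval of 289 to 8630.

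In the opposite direction, Nek6, a mitotic kinase, fell in intestine and rose in testes. It had 18.9 and 20.2 CPM in K36M intestine, against 163 and 189 CPM in WT intestine. In testes it had 9.62 and 11.1 CPM in K36M, against 3.38 and 3.35 CPM in WT, and the difference was -4.79 ± 0.37 (adjusted p = 0.000103). Slc9a2, a sodium-proton exchanger of epithelia, had 45.6 and 43.0 CPM in K36M intestine, against 238 and 266 CPM in WT intestine, and 25.6 and 36.8 CPM in K36M testes, against 12.5 and 13.2 CPM in WT testes. Car2, a carbonic anhydrase, had 11.7 and 15.6 CPM in K36M intestine, against 61.5 and 148 CPM in WT intestine, and 407 and 641 CPM in K36M testes, against 174 and 170 CPM in WT testes. For these 3 genes the K36M and WT libraries did not overlap in either tissue. Crim1, a transmembrane regulator of BMP signalling, showed the same pattern with a difference of -4.01 ± 0.26.

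**Figure D3:**
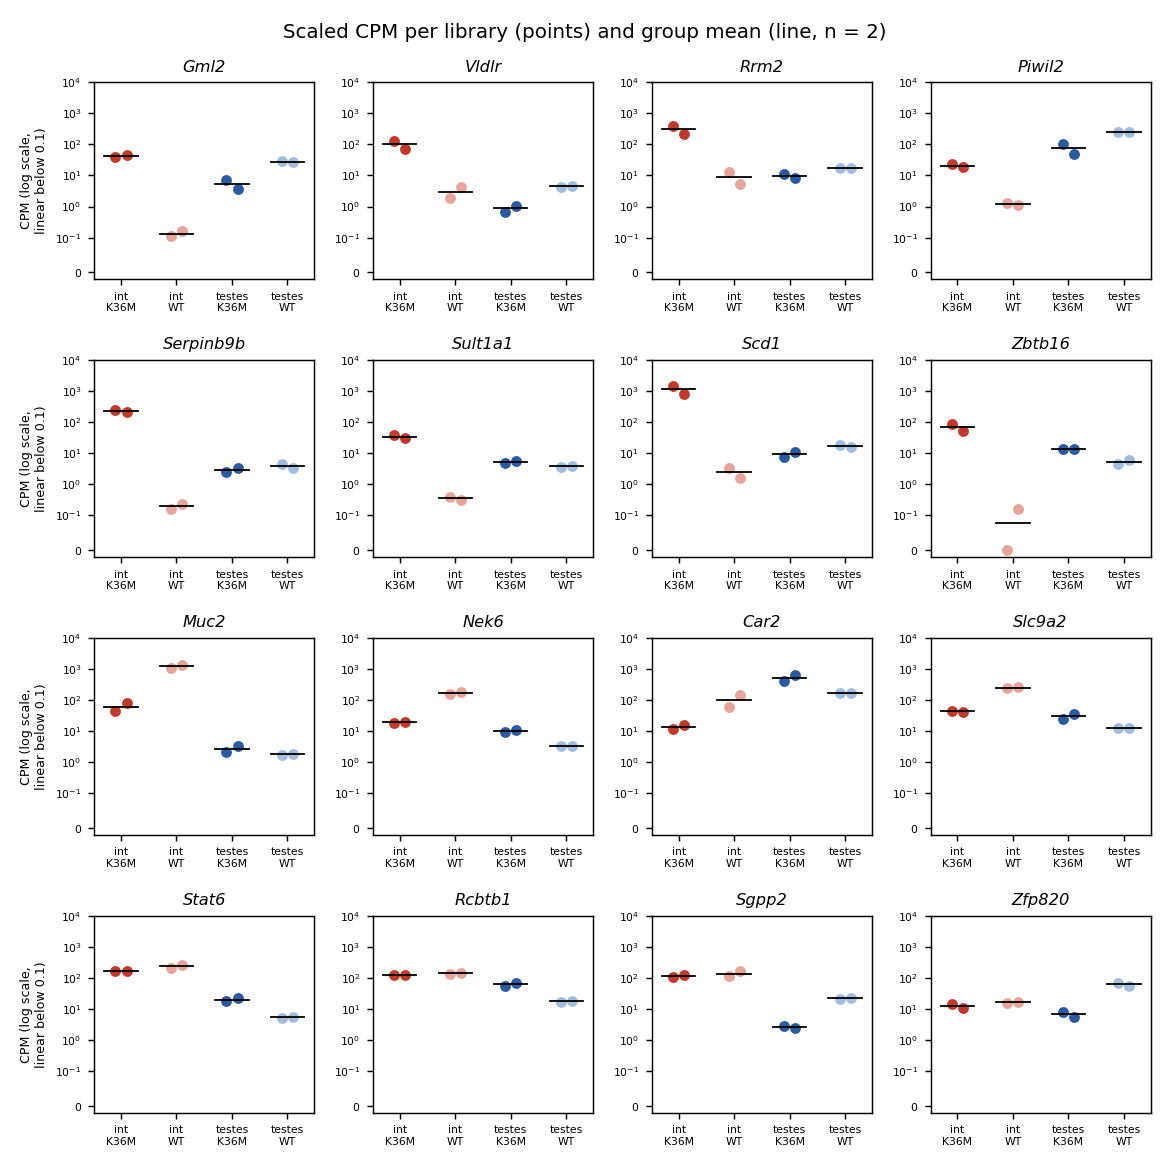
Scaled CPM of 16 genes in the 8 libraries (points, with the group mean as a line, 2 libraries a group) on a log axis that is linear below 0.1. In each panel the groups run from K36M intestine and WT intestine to K36M testes and WT testes. Gml2 and Vldlr are higher in K36M intestine and lower in K36M testes, Muc2 is lower in K36M intestine (44.5 and 78.5, against 1116 and 1396 CPM in WT), and Sgpp2 is lower in K36M testes.

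Serpinb9b, an inhibitor of granzyme-type serine proteases, rose in intestine alone. It had 244 and 215 CPM in K36M intestine, against 0.167 and 0.239 CPM in WT intestine, where 6 counts were seen and the ratio was 1180 with a counting interval of 543 to 3230. In testes it had 2.50 and 3.50 CPM in K36M, against 4.50 and 3.49 CPM in WT, which overlapped. Sult1a1, a phenol sulfotransferase, had 38.9 and 30.8 CPM in K36M intestine, against 0.389 and 0.319 CPM in WT intestine. Its testes levels were 5.06 and 5.52 CPM in K36M, against 3.63 and 3.94 CPM in WT, a change that did not pass (adjusted p = 0.150, edgeR), and the difference was 6.09 ± 0.45 (adjusted p = 0.000103). Both K36M intestine libraries lay far above both WT intestine libraries. The protocadherin gene Pcdha11 also rose in intestine alone, with a difference of 6.20 ± 0.44. The exons that Pcdha11 shares with neighbouring genes of its cluster make its count uncertain.

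Muc2, the main secreted mucin of goblet cells, fell in intestine alone. It had 44.5 and 78.5 CPM in K36M intestine, against 1116 and 1396 CPM in WT intestine, and 2.12 and 3.37 CPM in K36M testes, against 1.75 and 1.87 CPM in WT testes. The difference was -4.94 ± 0.46 (adjusted p = 0.000192, edgeR). Clec2d, a C-type lectin ligand of natural killer cell receptors, and Zfp239, a zinc finger gene, also fell in intestine alone, with differences of -3.80 ± 0.36 and -3.38 ± 0.30.

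In testes alone, Stat6, the transcription factor of interleukin-4 signalling, rose to 17.8 and 22.3 CPM in K36M, against 5.19 and 5.75 CPM in WT. Its intestine levels were 172 and 163 CPM in K36M, against 214 and 262 CPM in WT (log2 change -0.51 ± 0.16, adjusted p = 0.059), and the difference was -2.38 ± 0.23. Rcbtb1, an adaptor of ubiquitin ligases, rose in testes to 56.9 and 68.4 CPM in K36M, against 17.3 and 18.5 CPM in WT, and had 124 and 129 CPM in K36M intestine, against 134 and 150 CPM in WT intestine. Both genes had K36M and WT testes libraries that did not overlap. Sgpp2, a sphingosine 1-phosphate phosphatase, fell in testes to 2.81 and 2.42 CPM in K36M, against 21 and 23 CPM in WT. In intestine its groups overlapped, with 110 and 128 CPM in K36M and 113 and 164 CPM in WT, and the difference was 2.84 ± 0.34 (adjusted p = 0.000534). Zfp820, a zinc finger gene, fell in testes to 8.00 and 5.52 CPM in K36M, against 70.1 and 55.2 CPM in WT, and its intestine change did not pass (log2 change -0.39 ± 0.21, adjusted p = 0.225).

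Some genes moved the same way in both tissues but further in intestine. Sod3, the extracellular superoxide dismutase, rose to 63.6 and 80.2 CPM in K36M intestine, against 0.666 and 0.159 CPM in WT intestine, and to 48.5 and 78.1 CPM in K36M testes, against 30.1 and 28.7 CPM in WT. Fbxo21, a substrate adaptor of ubiquitin ligases, rose to 64.3 and 57.5 CPM in K36M intestine, against 3.22 and 1.83 CPM in WT intestine, and to 105 and 133 CPM in K36M testes, against 66.1 and 71.3 CPM in WT. Ehbp1, an adaptor of endocytic recycling, fell in both, to 3.30 and 3.25 CPM in K36M intestine, against 36.6 and 40.1 CPM in WT intestine, and to 76.0 and 81.2 CPM in K36M testes, against 109 in both WT libraries. The differences were 6.19 ± 0.52, 3.76 ± 0.31 and -3.08 ± 0.23, and in each tissue the K36M and WT libraries of these 3 genes did not overlap.

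Promoters of 3 of these genes are printed to show one gene each from the patterns of a rise in intestine alone, a fall in intestine alone and a fall in testes alone. Each holds 250 bases before and 50 after the start, from RefSeq on GRCm38.p6, 5′ to 3′ on the plus strand, with every CG dinucleotide in capitals. They lie at chr13:33027164-33027463 for Serpinb9b, chr7:141690090-141690389 for Muc2 and chr1:78310096-78310395 for Sgpp2.
Serpinb9b: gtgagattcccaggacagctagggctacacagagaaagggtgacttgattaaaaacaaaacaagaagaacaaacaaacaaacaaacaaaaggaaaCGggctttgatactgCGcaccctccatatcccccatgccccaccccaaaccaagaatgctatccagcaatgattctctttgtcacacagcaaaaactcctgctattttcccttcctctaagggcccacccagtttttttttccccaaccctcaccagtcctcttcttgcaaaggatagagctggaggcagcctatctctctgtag
Muc2: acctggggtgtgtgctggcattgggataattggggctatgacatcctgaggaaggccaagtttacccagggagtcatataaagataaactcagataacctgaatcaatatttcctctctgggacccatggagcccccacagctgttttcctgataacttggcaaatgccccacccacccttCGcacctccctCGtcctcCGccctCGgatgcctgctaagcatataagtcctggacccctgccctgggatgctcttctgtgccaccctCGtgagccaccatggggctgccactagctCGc
Sgpp2: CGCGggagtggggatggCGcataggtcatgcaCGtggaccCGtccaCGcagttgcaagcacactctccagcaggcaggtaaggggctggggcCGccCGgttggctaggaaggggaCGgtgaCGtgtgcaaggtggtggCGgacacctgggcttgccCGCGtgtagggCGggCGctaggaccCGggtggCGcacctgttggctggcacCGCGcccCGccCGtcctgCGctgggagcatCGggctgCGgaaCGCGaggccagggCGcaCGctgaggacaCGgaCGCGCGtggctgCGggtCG
The search was for the letters CG, which read the same on both strands, and it found 2 in Serpinb9b, 6 in Muc2 and 34 in Sgpp2. Of the 32851 promoters of this length in the table, 43.5% held at least 10 CG. Among the 7857 tested genes whose symbol had one listed start, 83.4% did, with a median of 21. The share was 90.5% for 619 genes that fell in testes alone and 73.5% for 325 genes that fell in intestine alone, given as a description.

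Pathway and marker lists are described by counts of members called, beside 16.7% positive and 19.7% negative and a median difference of -0.05 over all 13100 genes. Counts within a tissue stand beside 11.3% higher and 11.4% lower in intestine over the same genes. In testes these shares were 28.8% higher and 23.7% lower. Members named beyond the 2 with the smallest p of a list were chosen after their values were seen. The dot plot of medians shows every list with at least 7 tested members.

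Among writers, erasers and readers of H3K36 methylation, of 32 tested members (33 listed), 9 had a positive and 5 a negative difference, with a median of 0.33. In testes 8 rose and 13 fell, and in intestine 3 rose and 3 fell. Setd2, the enzyme of H3K36 trimethylation, had 86.0 and 108 CPM in K36M intestine, against 69.6 and 73.9 CPM in WT intestine, and 124 and 108 CPM in K36M testes, against 164 and 159 CPM in WT testes. Its difference was 0.92 ± 0.21 (adjusted p = 0.00825), with a fall in testes (adjusted p = 0.0224) and a change in intestine that did not pass (adjusted p = 0.101, edgeR). Morf4l1, a chromodomain reader of the mark, had the same pattern with a difference of 1.33 ± 0.23. Pwwp2b, a PWWP domain reader, fell in intestine and rose in testes, where it had 633 and 992 CPM in K36M, against 361 and 377 CPM in WT. In intestine it had 5.04 and 5.44 CPM in K36M, against 18.4 and 9.32 CPM in WT (adjusted p = 0.0429, edgeR). The part of the spermatid transcripts in the intestine WT library of mouse WT.1476 in this fall was not tested. With the mouse as a block 6 positive and 3 negative differences were called among the H3K36 writers, erasers and readers, with the block and the 8 libraries of the contrast alone 1 in each direction (Setd2 then had an adjusted p of 0.0935, edgeR), and without the testes WT library of mouse WT.1476 there were 3 and 4.

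DNA methylation genes had 8 negative and no positive differences among 14 tested (16 listed), with a median of -0.82. The list holds the DNA methyltransferases and the TET oxidases among others, and in testes 7 rose and 3 fell, while in intestine 2 rose and 1 fell. Dnmt3a, a de novo methyltransferase that also reads H3K36 methylation, had 43.0 and 51.7 CPM in K36M testes, against 19.4 and 21.1 CPM in WT testes. Its intestine levels overlapped, with 46.6 and 53.7 CPM in K36M and 48.8 and 41.7 CPM in WT, and the difference was -1.08 ± 0.23 (adjusted p = 0.00586). Tet2, which oxidises methylcytosine, had 20.5 and 22.3 CPM in K36M testes, against 6.76 and 8.02 CPM in WT testes, and a difference of -1.18 ± 0.24. With the mouse as a block and the 8 libraries of the contrast alone, none of the 8 passed, including Dnmt3a (adjusted p = 0.0589) and Tet2 (adjusted p = 0.0508).

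The H3K9 methylation list ran the other way, with 7 positive and 2 negative differences among 20 tested (21 listed) and a median of 0.59. In testes 2 rose and 10 fell, and in intestine 1 rose and none fell. Kdm3a, an H3K9 demethylase, rose in intestine to 182 and 159 CPM in K36M, against 80.8 and 93.1 CPM in WT. In testes it fell to 189 and 102 CPM in K36M, against 306 and 310 CPM in WT, with a difference of 2.05 ± 0.35. Ehmt1, the methyltransferase GLP, rose in testes to 26.5 and 39.0 CPM in K36M, against 15.4 and 15.5 CPM in WT. Without either testes WT library, or with the mouse as a block and the 8 libraries alone, 2 positive differences were called in the H3K9 methylation list.

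Genes of the Polycomb complexes had 9 positive and 6 negative differences among 30 tested, with a median of 0.43. The block fit on the 8 libraries of the contrast called 4 in each direction. Epop, a PRC2 accessory protein, rose in intestine to 12.0 and 9.96 CPM in K36M, against 0.333 and 0.558 CPM in WT, and had a difference of 5.09 ± 0.63. Cbx7, a chromodomain subunit of PRC1, rose in intestine to 111 and 42.5 CPM in K36M, against 8.39 and 4.06 CPM in WT, and fell in testes to 32.2 and 29.4 CPM in K36M, against 52.5 and 51.1 CPM in WT. Jarid2, a PRC2 cofactor, fell in intestine alone, to 22.9 and 23.5 CPM in K36M, against 54.0 and 62.2 CPM in WT, with a difference of -1.51 ± 0.20. Histone and histone chaperone genes had 3 positive and 2 negative differences among 23 tested (21.7%). That count of histone genes was 6 and 2 without the intestine K36M library of mouse 1485, 5 and 3 without its testes library, and 0 and 2 without either testes WT library.

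**Figure D4:**
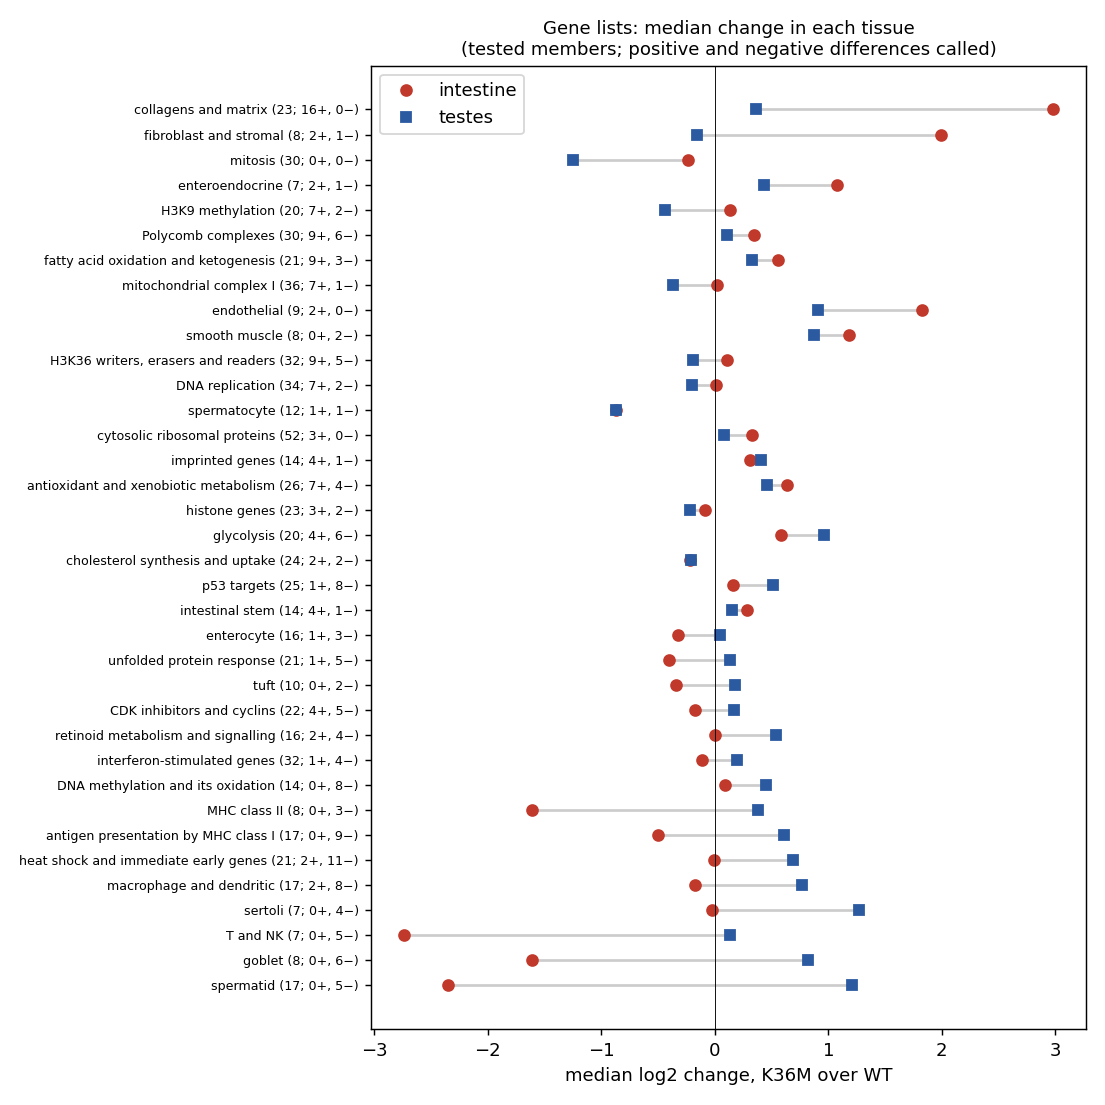
Median log2 change of K36M over WT (horizontal axis) in intestine (red circles) and testes (blue squares) over the tested members of each list with at least 7 of them. Labels give the number tested and the called positive and negative differences, and the lists are ordered by their median difference. Collagens and matrix lie at 2.98 in intestine and 0.36 in testes, and goblet markers at -1.61 in intestine and 0.82 in testes.

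Antigen presentation by MHC class I had 9 negative and no positive differences among 17 tested, with a median of -1.0. With the mouse as a block and the 8 libraries of the contrast alone 4 passed, and with genes over 20-fold apart between the tissues left out 2 of 6 did. In intestine 5 fell and 1 rose, and in testes 8 rose and none fell. Psmb10, an immunoproteasome subunit, fell in intestine to 49 and 98.7 CPM in K36M, against 211 and 218 CPM in WT, and rose in testes to 4.19 and 4.71 CPM in K36M, against 1.75 and 2.16 CPM in WT. Psme2, an activator of the proteasome, moved in the same directions with a difference of -1.83 ± 0.29. H2-T23, a nonclassical class I molecule, had 344 and 345 CPM in K36M intestine, against 465 and 501 CPM in WT intestine. That change did not pass (adjusted p = 0.0573, edgeR). In testes H2-T23 rose to 3.75 and 3.57 CPM in K36M, against 1.69 and 1.48 CPM in WT (adjusted p = 0.00972, edgeR). Its difference was -1.70 ± 0.22.

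T and NK cell markers had 5 negative differences among 7 tested of 20 listed, and their summed level was 85.4 and 59.0 CPM in K36M intestine, against 487 and 531 CPM in WT intestine. In testes the sum was 82.4 and 63.4 CPM in K36M, against 86.5 and 96.5 CPM in WT. Cd3e, a chain of the T cell receptor complex, had 1.56 and 1.84 CPM in K36M intestine, against 13.2 and 17.7 CPM in WT intestine, with a difference of -3.33 ± 0.57. Macrophage and dendritic markers had 2 positive and 8 negative differences among 17 tested, and their sum overlapped between K36M intestine (336 and 205 CPM) and WT intestine (298 and 386 CPM). In intestine 2 members of this list rose and 4 fell. Csf1r, the receptor of macrophage growth factor, rose in intestine to 12.5 and 7.70 CPM in K36M, against 1.39 and 0.478 CPM in WT. Its direction was that of the 2 positive members and ran against the 8 negative ones. With the mouse as a block 2 positive and 4 negative differences of the macrophage and dendritic list were called, and 2 in each direction without the testes WT library of mouse WT.1477. The part of cell numbers in the class I values was not tested.

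Goblet cell markers fell in intestine. Of 8 tested (15 listed), 6 had a negative and none a positive difference, with a median of -3.06, and these 6 counts stayed at 6 without any one of the 12 libraries and with the mouse as a block. The summed level of the list was 1440 and 1780 CPM in K36M intestine, against 12400 and 15200 CPM in WT intestine, and 13.8 to 19.1 CPM in testes. Fcgbp, a mucus protein, had 246 and 432 CPM in K36M intestine, against 5292 and 5712 CPM in WT intestine. Fer1l6, of the ferlin family, had 3.48 and 7.63 CPM in K36M intestine, against 37.6 and 40.5 CPM in WT intestine. In bulk tissue, fewer cells of a type and less RNA per cell cannot be told apart. Enterocyte markers had overlapping sums, with 128000 and 98500 CPM in K36M intestine, against 103000 and 121000 CPM in WT intestine, but 7 of the 23 members tested in intestine fell and none rose. Among them Anpep, a brush border aminopeptidase, fell to 1880 and 2363 CPM in K36M, against 7900 and 6276 CPM in WT. Paneth markers summed to 908 and 311 CPM in K36M intestine, against 1260 and 1070 CPM in WT intestine, with 1 of 11 listed members tested in both tissues.

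Collagen and matrix genes had 16 positive and no negative differences among 23 tested of 30 listed, with a median of 2.94. Of these 23, 16 had a mean under 1 CPM in WT intestine. The filter could be passed through the 2 K36M intestine libraries alone, which favours a positive difference among genes so low in WT. How many members passed in this way was not counted. The count and median are thus given only as descriptions of the genes that passed the filter. Nid1, the basement membrane protein nidogen, had 22.6 and 31.1 CPM in K36M intestine, against 0.944 and 0 CPM in WT intestine, and 35.6 and 39.5 CPM in K36M testes, against 34.3 and 32.6 CPM in WT testes. Its difference was 5.45 ± 0.69, and 11.60 without the intestine WT library of mouse WT.1476, which leaves a WT level of 0. Timp3, an inhibitor of matrix proteases, rose in both tissues, to 12.3 and 8.90 CPM in K36M intestine, against 0.777 and 0.159 CPM in WT intestine, and to 48.9 and 52.9 CPM in K36M testes, against 20.1 and 21.4 CPM in WT, with a difference of 3.06 ± 0.56 and of 4.69 without that library. Without the intestine K36M library of mouse 1485 the list had 9 positive and 1 negative differences and a median of 1.90. It had 9 positive ones without the intestine WT library of mouse WT.1477, 8 without the testes WT library of mouse WT.1476, and 9 when the mouse entered as a block. In the block fit limited to the 8 libraries of the contrast 4 were called. Fibroblast and stromal markers summed to 258 and 137 CPM in K36M intestine, against 366 and 438 CPM in WT intestine, and endothelial markers to 46.1 and 19.8 CPM in K36M, against 15.7 and 15.4 CPM in WT. The part of these cells in the matrix values was not tested.

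Heat shock and immediate early genes had 2 positive and 11 negative differences among 21 tested of 25 listed, with a median of -1.05. In testes 11 rose and 2 fell, and in intestine 1 rose and 3 fell. Junb, a subunit of the AP-1 transcription factor, rose in testes to 8.44 and 11.1 CPM in K36M, against 2.75 and 3.10 CPM in WT, and had 116 and 112 CPM in K36M intestine, against 142 and 164 CPM in WT intestine. Ier2, another early response gene, had a difference of -2.35 ± 0.39. Dusp1, a phosphatase of MAP kinases, ran against the list and rose in intestine to 61.1 and 102 CPM in K36M, against 9.61 and 8.92 CPM in WT. Without the testes WT library of mouse WT.1476 or of mouse WT.1477, or the testes K36M library of mouse 1553, 6, 5 and 6 of the negative differences passed.

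Metabolic lists differed by pathway. Fatty acid oxidation and ketogenesis had 9 positive and 3 negative differences among 21 tested, with a median of 0.42. In intestine 11 rose and none fell, and in testes 8 rose and 6 fell. Hadhb, a subunit of the mitochondrial trifunctional protein, rose in intestine to 192 and 257 CPM in K36M, against 132 and 122 CPM in WT, and fell in testes to 43.3 and 37.2 CPM in K36M, against 68.1 and 66.9 CPM in WT. Ppara, the nuclear receptor that controls this pathway, rose in intestine to 178 and 128 CPM in K36M, against 35.6 and 37.0 CPM in WT, with a difference of 2.56 ± 0.48. Cpt2, which imports fatty acyl groups into mitochondria, fell in testes to 35.4 and 31.0 CPM in K36M, against 73.8 and 74.7 CPM in WT, and had 186 and 232 CPM in K36M intestine, against 221 and 247 CPM in WT intestine. Glycolysis genes had 4 positive and 6 negative differences among 20 tested, and 14 rose in testes. Ldhb, a lactate dehydrogenase subunit, rose in both tissues, to 42.4 and 57.5 CPM in K36M intestine, against 1.72 and 0.319 CPM in WT intestine, and to 126 and 176 CPM in K36M testes, against 46.4 and 50.2 CPM in WT. Mitochondrial complex I had 7 positive and 1 negative differences among 36 tested, with 14 members that fell in testes and 2 in intestine. That count was 2 positive and 1 negative without the testes WT library of mouse WT.1476, and 15 positive and 2 negative without the intestine K36M library of mouse 1485. The cytosolic ribosomal proteins had 3 positive differences among 52 tested, and 10 without the intestine WT library of mouse WT.1476. For cholesterol synthesis and uptake 2 were called in each direction among 24, with 8 and 2 without the intestine K36M library of mouse 1485 and 2 and 8 without that of mouse 1553.

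DNA replication genes had 7 positive and 2 negative differences among 34 tested, with a median of 0.29. Without the intestine K36M library of mouse 1553 there were 7 in each direction and the median was -0.37, and without mouse 1485 in both tissues there were 12 and 1. Pcna, the sliding clamp of DNA polymerase, fell in testes to 48.8 and 30.7 CPM in K36M, against 84.9 and 87.2 CPM in WT, and had 71.0 and 83.4 CPM in K36M intestine, against 60.7 and 66.0 CPM in WT intestine. None of 30 mitosis genes had a called difference, although their median difference was 1.11, and 20 of them fell in testes. That count turned on single mice: 19 were positive (median 2.53) without mouse 1485 in both tissues, 6 without its intestine library, 7 without its testes library and 4 without the intestine WT library of mouse WT.1476, while 3 were negative (median -0.82) without the intestine K36M library of mouse 1553. Their intestine levels varied between mice of one genotype: Top2a, a DNA topoisomerase, had 6.25 and 64.5 CPM in K36M intestine, against 66.1 and 16.3 CPM in WT intestine. Its difference of 1.26 ± 1.24 had the opposite sign without the intestine K36M library of mouse 1553, at -1.27. Among cell cycle regulators, Rb1, the retinoblastoma protein, fell in intestine to 51.2 and 51.8 CPM in K36M, against 102 and 129 CPM in WT, and rose in testes to 66.0 and 76.0 CPM in K36M, against 45.4 and 47.4 CPM in WT. Cdkn2c, an inhibitor of CDK4 and CDK6, moved in the opposite directions, with a difference of 2.55 ± 0.39. The p53 targets had 1 positive and 8 negative differences among 25 tested. There were 4 and 8 without the intestine K36M library of mouse 1553, 3 and 9 without that of mouse 1485. The block fit on the 8 libraries of the contrast called 0 and 3. The death receptor Fas had 26.8 and 18.1 CPM in K36M intestine, against 38.6 and 52.9 CPM in WT intestine, and 1.69 and 2.22 CPM in K36M testes, against 0.313 and 0.639 CPM in WT testes.

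Spermatogonia markers summed to 756 and 496 CPM in K36M testes, against 953 and 951 CPM in WT testes, while 6 of the 16 tested in testes rose and 3 fell, so the sum and the calls ran different ways. Spermatid markers summed to 44500 and 66100 CPM in K36M testes, against 23600 and 23900 CPM in WT testes, and 14 of the 17 tested in both tissues rose. Spermatocyte markers summed to 6610 and 6480 CPM in K36M testes, against 7820 and 7870 CPM in WT testes. Of the 12 tested in both tissues 9 fell and 2 rose in testes, and of the 21 tested in testes 16 fell and 2 rose. Sertoli markers summed to 3370 and 4730 CPM in K36M testes, against 1340 and 1370 CPM in WT testes. All 7 tested in both tissues rose in testes, as did 15 of the 16 tested in testes. In the difference, spermatid genes gave 5 negative calls, among them Tnp2, a transition protein of sperm chromatin, at -4.47 ± 1.48 (adjusted p = 0.0411) and at -0.96 (adjusted p = 0.438) without the intestine WT library of mouse WT.1476. No spermatid gene was called without that library, where the markers summed to 467 CPM beside 41.2 CPM in mouse WT.1477, and none with the mouse as a block. Dhh, a hedgehog ligand of Sertoli cells, rose in testes to 32.9 and 40.9 CPM in K36M, against 17.2 and 16.1 CPM in WT, and its intestine level was under 1 CPM in all 4 libraries.

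Genes on the X chromosome stood out by position. Of 383 tested, 24 had a positive difference (6.27%) and 178 a negative one (46.5%), against 17.1% and 19.1% of 12379 autosomal genes. Their median difference was -0.97, with a median log2 change of -0.11 in intestine and 0.89 in testes, against -0.02 in intestine and 0.04 in testes for autosomal genes. Without any one of the 12 libraries, 127 to 202 X-linked genes had a negative difference and the median lay between -1.11 and -0.77. Scaled by library size alone, 26 were positive and 143 negative. Spermatid, Sertoli and spermatocyte marker sums moved in the same testes libraries, and their part in the X-linked values was not tested.

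**Figure D5:**
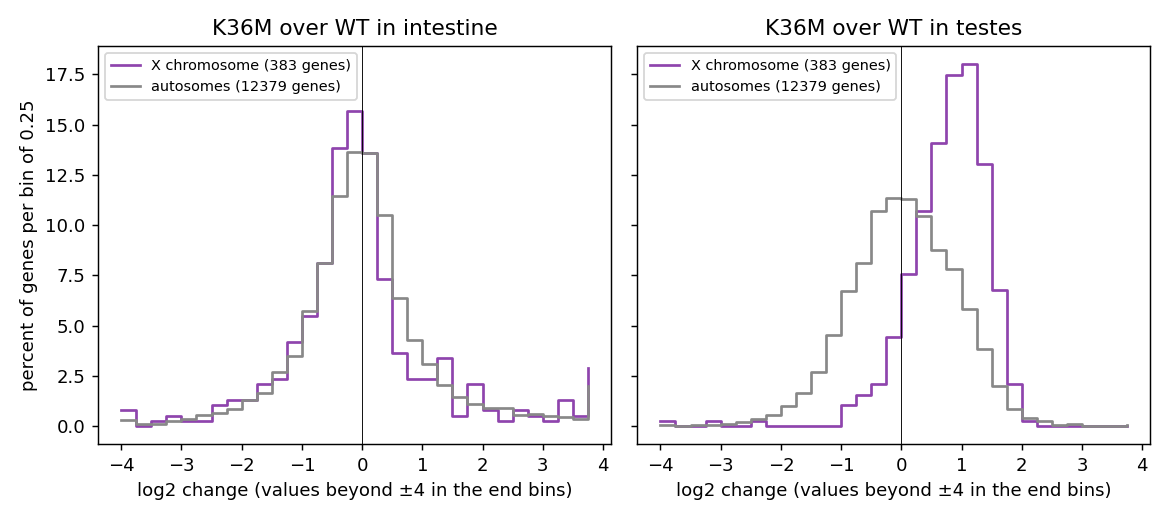
Percent of genes (vertical axis) per bin of 0.25 in the log2 change of K36M over WT (horizontal axis), in intestine (left) and testes (right), for 383 X-linked genes (purple) and 12379 autosomal genes (grey), with 2 libraries a group. In testes the X-linked curve lies to the right of the autosomal one, with medians of 0.89 and 0.04, and in intestine the curves lie close, with medians of -0.11 and -0.02.

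The direction of the difference also followed the tissue in which a gene was more abundant, as read from the K9M libraries, which are not part of the contrast. Of 938 genes over 16-fold higher in intestine, 5.86% had a positive and 36.1% a negative difference, with a median of -0.73. Their median log2 change was -0.24 in intestine and 0.49 in testes. Of genes over 16-fold higher in testes, 396 were positive (26.8%) and 176 negative (11.9%), with a median of 0.36. Among 7236 genes within 4-fold between the tissues, 15.4% were positive and 17.0% negative.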

How the data were processed

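The deposited values are raw read counts per gene ID, made by the authors; the submitters' processing notes name STAR, HTSeq and the mm9 build. Versions and strand setting are not given in the sources used here, so antisense and overlapping genes may share reads. Each table also has 5 entries that name no gene, which were left out (reads without a feature made up 12% to 26% of all entries). Symbols and gene order came from GENCODE M21 and named 32897 IDs. Counts were fitted with edgeR 4.0.16 (R 4.3.3; robust quasi-likelihood, TMM) over the 12 intestine and testes libraries with 6 tissue-by-genotype groups. Genes had to pass filterByExpr in both tissues. Changes per tissue came from separate fits of 6 libraries. The threshold was an adjusted p of 0.05 (Benjamini-Hochberg over all genes tested). Residual degrees of freedom were 6 for the difference, which treats the tissues of a mouse as independent, 3 with the mouse as a block and 3 for each tissue fit. The members and the 42 lists were chosen with earlier results of these data known. Genes named were the 10 largest differences in each direction and the 4 smallest p of each pattern, both taken from 3483 eligible genes. Eligible genes had a called difference and a mean log2 CPM of at least 1 in each tissue. Both K36M mice had to lie beyond both WT mice in intestine minus testes level. X- and Y-linked genes, pseudogenes, genes without a symbol and predicted or clone names were left out. Apart from genes said to be chosen later, the rest were 2 of each list, eligible or not. The text describes part of the genes named. Alternatives included limma 3.58.1, DESeq2 1.42.0, other scalings and filters, left-out libraries and the mouse as a replicate block. The pairing comes from the mouse numbers in the labels, and deviations of the 2 tissues of a mouse correlated across genes at -0.0532 in K36M, 0.0506 in WT and 0.113 in K9M.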

Additional observations from a re-analysis of the deposited data

Results flagged for a closer look

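The K36M effect differed between intestine and testes by the test of the difference itself (edgeR's interaction contrast, adjusted p under 0.05) for 4771 genes, and each value here is a log2 effect difference, intestine minus testes, of a gene described above. Among genes that rose in intestine and fell in testes, it was 10.68 for Gml2, 9.97 for Gml, 9.72 for Scd1, 8.65 for Cyp11b1, 8.37 for Cyp11b2, 8.35 for Psca, 7.45 for Vldlr, 5.92 for Rrm2, 5.78 for Piwil2, 5.52 for Them6, 4.35 for Cbx7, 2.55 for Cdkn2c, 2.05 for Kdm3a and 1.57 for Hadhb. Among genes that fell in intestine and rose in testes, it was -1.78 for Rb1, -1.83 for Psme2, -2.55 for Pwwp2b, -2.71 for Psmb10, -3.00 for Fas, -3.79 for Slc9a2, -4.01 for Crim1, -4.54 for Car2, -4.79 for Nek6 and -5.30 for Dhh. Among genes that passed the test in intestine alone, as a rise, it was 10.54 for Serpinb9b, 6.20 for Pcdha11, 6.09 for Sult1a1, 5.45 for Nid1, 5.09 for Epop, 3.68 for Csf1r, 3.55 for Lynx1 and 2.56 for Ppara. Among genes that passed the test in intestine alone, as a fall, it was -1.51 for Jarid2, -2.45 for Anpep, -2.94 for Fer1l6, -3.27 for Fcgbp, -3.33 for Cd3e, -3.38 for Zfp239, -3.80 for Clec2d and -4.94 for Muc2. Among genes that passed the test in testes alone, as a rise, it was -1.08 for Dnmt3a, -1.17 for Ehmt1, -1.18 for Tet2, -1.70 for H2-T23, -1.98 for Rcbtb1, -2.14 for Junb, -2.35 for Ier2, -2.38 for Stat6 and -4.47 for Tnp2. The Tnp2 value leaned on 1 library, and was -0.96 without the intestine WT library of mouse WT.1476. Among genes that passed the test in testes alone, as a fall, it was 2.84 for Sgpp2, 2.82 for Zfp820, 2.48 for Jrk, 1.40 for Pcna, 1.33 for Morf4l1, 1.0 for Cpt2 and 0.92 for Setd2. Among genes that moved the same way in both tissues, it was 8.53 for Zbtb16, 6.19 for Sod3, 3.85 for Ldhb, 3.76 for Fbxo21, 3.06 for Timp3, 2.36 for Dusp1 and -3.08 for Ehbp1. No explanation was tested for these differences.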

How the results depend on the processing

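No called effect difference became a called difference of the opposite sign under any alternative. The sign of lost calls was followed only for the 136 genes examined one by one, and the sign changes below are among these. Its 4771 calls became 3092 with limma-voom, 2326 at an adjusted p of 0.01, 2112 and 2059 without WT mouse WT.1476 or WT.1477 in both tissues, 6365 and 4797 without K36M mouse 1485 or 1553 in both, and 2906 to 5468 without one library. With the mouse as a replicate block 3814 were called, and with that pairing and the 8 WT and K36M libraries alone, an alternative chosen after seeing the data, 1873. Among the 136 genes examined one by one, the block ended 7 calls, the smaller block fit 36 and limma-voom 19. The 3323 calls in intestine became 2190 with limma-voom, 927 at 0.01, 1990 with 2 genotypes alone and 788 to 3885 without one library. The 9476 in testes became 4157 at 0.01, 5028 with a 2-fold minimum and 2029 to 12753 without one library. Uncalled differences changed sign for Top2a (-1.722 without K36M mouse 1553 in both tissues; -1.275 to 2.605 without one library), Hbb-bs (-2.148 to 4.045), Klf1 (-1.441 to 2.537; -0.351 without K36M mouse 1553 and -1.775 without WT mouse WT.1476 in both tissues) and Prm1 (0.064 without WT mouse WT.1476 in both tissues). The cause was not tested. Genes with few counts in one group, such as Gml2 in WT intestine, have sizes limited by depth.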

Other observations

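Lists not described above are given by their called differences. Interferon-stimulated genes had 1 positive and 4 negative among 32 tested, but 0 and 16 (median -1.16) without the intestine K36M library of mouse 1553 and 6 and 4 without that of mouse 1485. MHC class II genes had 0 and 3 among 8, and 0 and 1 without the testes WT library of mouse WT.1477 or the testes K36M library of mouse 1553. Genes of the unfolded protein response had 1 and 5 among 21, and 0 and 2 without the testes WT library of mouse WT.1476. Retinoid genes had 2 and 4 among 16. Antioxidant and xenobiotic genes had 7 positive and 4 negative differences among 26 tested, CDK inhibitors and cyclins 4 and 5 among 22, and imprinted genes 4 and 1 among 14, with 1 positive one after leaving out any one of the 4 WT libraries. Of 33 Hox genes listed, 1 passed the count filter in both tissues, Hoxb9, with 90 counts in K36M intestine and 1 in WT intestine, a ratio of 109 with a counting interval of 19.1 to 4360.

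Markers of further cell types are given in the same way. Intestinal stem cell markers had 4 positive and 1 negative differences among 14 tested, enteroendocrine markers 2 and 1 among 7, and tuft markers 0 and 2 among 10. Leydig markers had 3 positive and no negative differences among 5 tested, and 1 positive one without the testes WT library of mouse WT.1476. Their summed level was 2440 and 1950 CPM in K36M intestine, against 721 and 969 CPM in WT intestine, and 447 and 494 CPM in K36M testes, against 848 and 732 CPM in WT testes. Por, an electron donor of cytochrome P450 enzymes that many tissues express, made up 2130 and 1692 CPM of that sum in K36M intestine, against 406 and 538 CPM in WT intestine. Smooth muscle markers had 0 and 2 among 8, spermatogonia markers 2 and 1 among 6, B and plasma cell markers 1 and 1 among 5, endothelial markers 2 and 0 among 9, fibroblast and stromal markers 2 and 1 among 8, and erythroid markers none among 3. Leaving out one library moved these small counts: stem cell markers reached 0 and 0 without the testes WT library of mouse WT.1477, enteroendocrine positive counts 0 without either intestine WT library, smooth muscle 3 and 2 without the intestine K36M library of mouse 1553, and fibroblast and stromal markers 4 and 1 without the intestine WT library of mouse WT.1476.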
